A study of Mus musculus with 7 samples.

Results

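The platelet-derived growth factor (PDGF) genes were examined in outflow tracts (OFTs) of mouse embryos at embryonic day 11.5. The members were chosen by gene symbol, as the rows of the deposited table named *Pdgfa*, *Pdgfb*, *Pdgfc*, *Pdgfd*, *Pdgfra* and *Pdgfrb*. All 6 were listed, of 14732 genes in all. The compared groups were 3 control pools labelled WT (replicates 3, 4 and 5) and 4 Gata6STOP/+ pools (replicates 1, 3, 4 and 5). In Gata6STOP/+ embryos, 1 copy of *Gata6*, a GATA-family transcription factor gene, is cut short by an early stop. The allele was made with CRISPR-Cas9, comes from 1 selected founder backcrossed to C57BL/6, and is present in every cell of the embryo, not only in the OFT. Each library came from a pool of OFTs. The series' design text gives 3 pools for each genotype, but 4 Gata6STOP/+ pools carry labels, and all 7 pools were used. Replicates are separate pools according to the labels, and nothing says that they came from separate litters.

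PDGFs are secreted dimers that bind and activate a pair of receptor tyrosine kinases at the cell surface. The A and C chains act mainly through the alpha receptor, which marks much of the embryonic mesenchyme, including cells that derive from the neural crest. The B and D chains also bind the beta receptor, which is known for the recruitment of pericytes and vascular smooth muscle cells to vessels. In the OFT, both receptors are known to be used by the neural crest and by mesenchymal cells that build the septum and the walls of the great arteries.

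The targeted gene was lower on average but overlapped between groups. In CPM (read counts scaled to the size of the library), control replicates 3, 4 and 5 had *Gata6* levels of 315, 257 and 286. Gata6STOP/+ replicates 1, 3, 4 and 5 had 268, 203, 219 and 217 CPM (log2 fold change −0.34, standard error 0.099, limma adjusted *P*-value=0.389). Gata6STOP/+ replicate 1 was thus above control replicate 4. Recovered reads on listed genes ranged from 17783655 to 34467710 per pool. Markers of myocardium, endothelium, smooth muscle and mesenchyme were listed in every pool. Of 12 pharyngeal epithelium markers, 3 were listed.

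Of the members, *Pdgfra*, the alpha receptor, differed most between genotypes. It stood at 70.8% of the control mean in Gata6STOP/+ OFTs, while the beta receptor *Pdgfrb* stood at 98.8%. The ligands *Pdgfa*, *Pdgfb* and *Pdgfc* were between 105% and 113% of the control mean, and *Pdgfd* was at 85.7%. With limma, a linear model fitted over all genes on log2(CPM + 0.5) with Benjamini–Hochberg adjustment, 0 of the 6 members had an adjusted *P*-value under 0.05, as had 0% of the 14732 genes. At an unadjusted *P*-value under 0.05, limma gave 1 member, *Pdgfra*, and 3.88% of all genes in the same direction. In edgeR, neither the quasi-likelihood nor the likelihood ratio test gave an adjusted *P*-value under 0.05 for any member (0 of 6 each, against 0% and 0.713% of all genes). Each gave 1 member at an unadjusted *P*-value under 0.05, against 7.99% and 7.59% of all genes in either direction. DESeq2 gave 1 member, *Pdgfra*, at an adjusted *P*-value under 0.05, where it gave 0.285% of genes in the lower direction.

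**Figure D1:**
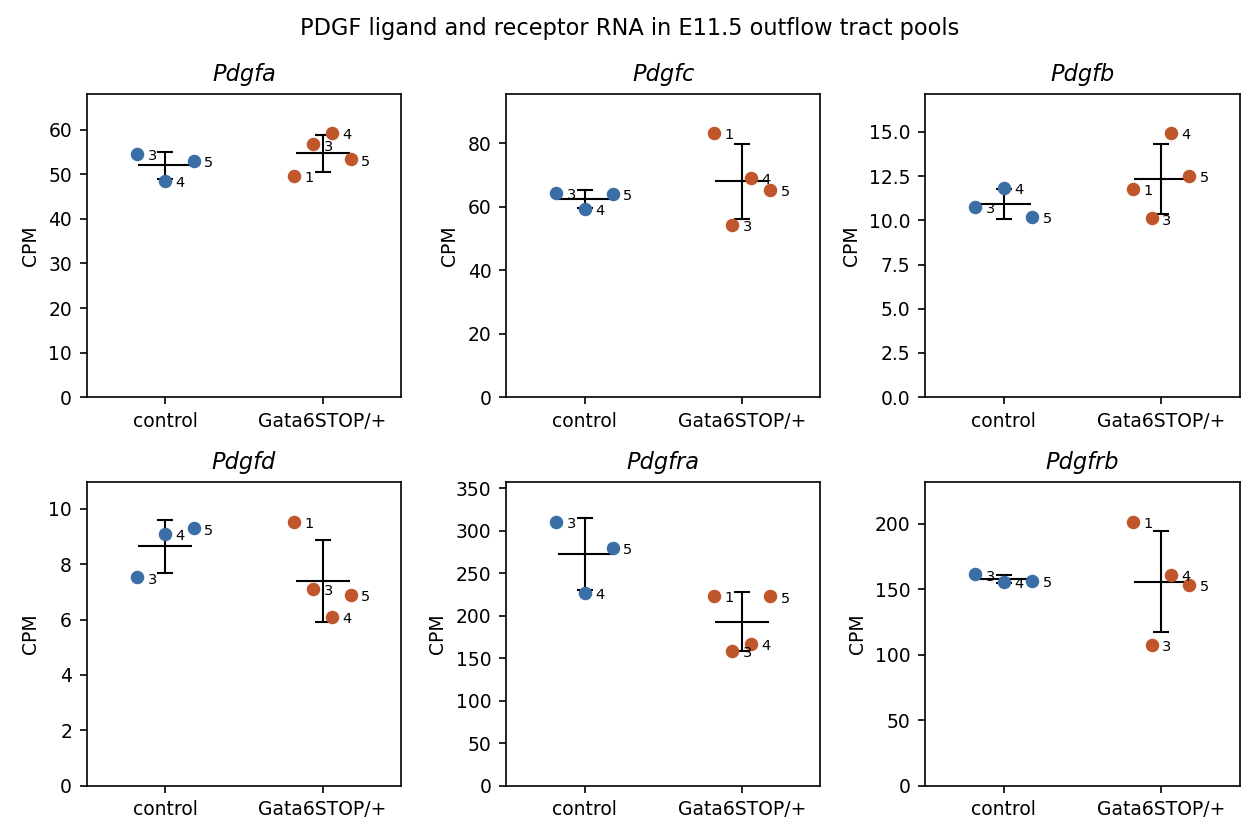
CPM of each PDGF member (y axis, from 0) in the 3 control and 4 Gata6STOP/+ pools (x axis), with 1 point per pool labelled by its replicate number, and the mean with its s.d. as the horizontal line and bars. The Gata6STOP/+ pools lie below the control pools for *Pdgfra* and overlap them for the other 5 members.

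The reference sequence is shown upstream of *Pdgfra*, the member with the largest difference, and of *Pdgfd*, at 85.7% of the control mean. It is shown because the altered gene encodes a factor that binds GATA motifs. *Pdgfrb*, also slightly lower on average at 98.8%, was left out of this search. Motifs were searched as AGATAA or AGATAG and as TGATAA or TGATAG, on both strands, in the 250 bases before the gene start in RefSeq (GRCm38.p6). The *Pdgfra* window is chr5:75152001-75152250, on the plus strand, and the *Pdgfd* window is chr9:6168236-6168485, also on the plus strand. Capitals mark a motif.
*Pdgfra*: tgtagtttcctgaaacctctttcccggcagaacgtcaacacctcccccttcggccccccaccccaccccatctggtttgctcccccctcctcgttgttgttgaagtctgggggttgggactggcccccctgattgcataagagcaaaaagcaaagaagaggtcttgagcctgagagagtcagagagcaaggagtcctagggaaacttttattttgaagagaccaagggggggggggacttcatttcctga
*Pdgfd*: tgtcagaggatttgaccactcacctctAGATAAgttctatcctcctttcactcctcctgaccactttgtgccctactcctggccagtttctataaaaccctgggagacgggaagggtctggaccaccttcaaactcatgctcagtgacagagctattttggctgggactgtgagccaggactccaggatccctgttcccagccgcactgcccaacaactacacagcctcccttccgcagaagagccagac

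The *Pdgfra* window held no match to these letters. The *Pdgfd* window held 1, an AGATAA on the plus strand that begins 223 bases before the gene start. RefSeq windows were searched for 4 members, *Pdgfa* with 2 windows and *Pdgfc*, *Pdgfd* and *Pdgfra* with 1 each, and 1 of these 5 windows held a motif. *Pdgfrb*, on chromosome 18, was left out by choice, and no window was available for *Pdgfb*. Over all 32851 windows of the same length, 26.5% held at least 1. A match of letters is a description of the sequence and was not tied to any measured binding.

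*Pdgfra* (ENSMUSG00000029231) lies on chromosome 5 of GRCm38, from 75152292 to 75198215 on the plus strand, and its longest annotated transcript has 23 exons. Control replicates 3, 4 and 5 had 311, 227 and 280 CPM. In Gata6STOP/+ replicates 1, 3, 4 and 5 it was at 223, 159, 167 and 223 CPM. Every Gata6STOP/+ pool was therefore below every control pool, as was the case for 4.16% of all genes. The means were 272±42.4 CPM (s.d., *n*=3) and 193±34.8 CPM (s.d., *n*=4). The log2 fold change was −0.50 (standard error 0.139), with a 95% interval from −0.81 to −0.19 before any adjustment for the number of genes. By unadjusted limma *P*-value (0.00427), *Pdgfra* ranked 177 of 14732 genes, and its adjusted *P*-value was 0.354. In DESeq2 the log2 fold change was −0.50 and the adjusted *P*-value 0.0408, so that the call depends on the test.

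In both groups, the pools fell into higher and lower ones. Control replicate 4, at 227 CPM, stood only 3.55 CPM above Gata6STOP/+ replicate 1, a gap of 1.57% of its level. The counting error of that difference alone, from 6571 and 6362 recovered reads, was 1.76% (s.d.). These 2 pools are also those in which *Gata6* overlapped between groups. Leaving out 1 pool at a time gave log2 fold changes from −0.63 (without control replicate 4) to −0.40 (without control replicate 3), with limma adjusted *P*-values from 0.209 to 0.689. Whole OFTs were sequenced, so fewer cells that contain *Pdgfra* RNA and less of it per cell cannot be told apart.

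*Pdgfrb* (ENSMUSG00000024620) lies on chromosome 18, from 61045150 to 61085061 on the plus strand. Its level was nearly constant in the controls, with 161, 156 and 156 CPM for replicates 3, 4 and 5. The Gata6STOP/+ pools spread to both sides of these values, at 201, 107, 161 and 153 CPM in replicates 1, 3, 4 and 5. The coefficient of variation was 2.01% over the 3 control pools and 24.7% over the 4 Gata6STOP/+ pools. The group means were 158±3.16 CPM (s.d., *n*=3) for control and 156±38.5 CPM (s.d., *n*=4) for Gata6STOP/+ pools. The log2 fold change was −0.05 (standard error 0.159, 95% interval −0.40 to 0.30, limma adjusted *P*-value=0.956). Its direction rested on 1 pool, since the log2 fold change was 0.11 without Gata6STOP/+ replicate 3. These pools do not exclude a change within that 95% interval, which is not adjusted for the number of genes.

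The difference between the receptors was tested directly, as log2(CPM + 0.5) of *Pdgfra* minus that of *Pdgfrb* in each pool. This log2 difference was 0.94, 0.54 and 0.84 in control replicates 3, 4 and 5. It was 0.15, 0.56, 0.05 and 0.54 in Gata6STOP/+ replicates 1, 3, 4 and 5. Replicates 3 and 5 of the Gata6STOP/+ group lay next to control replicate 4, and replicate 3 exceeded it, so the groups overlapped. The mean was 0.45 lower in Gata6STOP/+ pools (exact two-sided permutation test over 35 splits of the pools, *P*=0.114, or 0.229 when adjusted over the 2 tests of this kind). The smallest *P*-value that 3 pools against 4 allow is 0.0571. The test could therefore not reach 0.05 whatever the receptors did, and it does not decide whether they changed unequally.

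**Figure D2:**
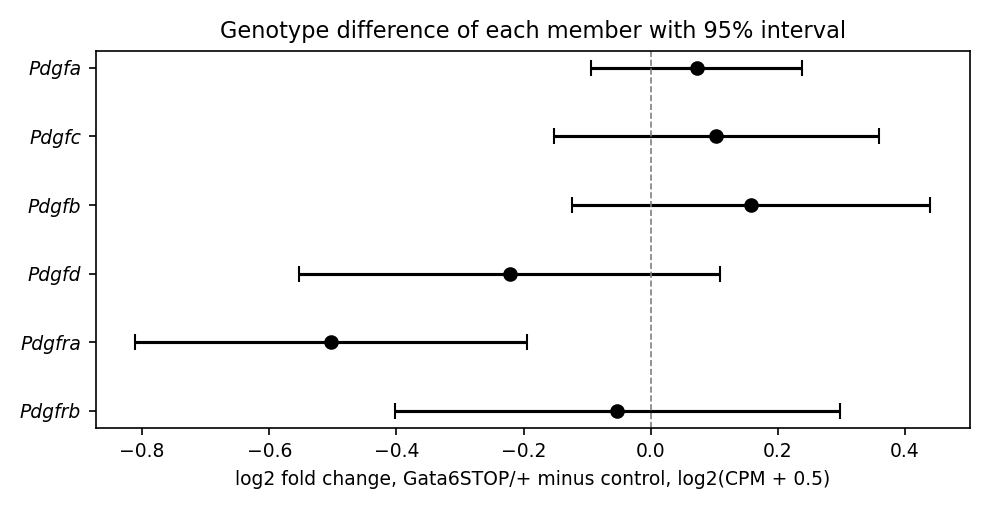
Log2 fold change of each PDGF member (Gata6STOP/+ minus control, on log2(CPM + 0.5); x axis) from limma, with its unadjusted 95% interval as bars, over 3 control and 4 Gata6STOP/+ pools. The interval of *Pdgfra*, from −0.81 to −0.19, lies below 0, and those of the other 5 members include 0.

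Among the ligands that act through the alpha receptor, *Pdgfa* (ENSMUSG00000025856, chromosome 5, 138976014 to 138997370, minus strand) varied least. Control replicates 3, 4 and 5 had 54.5, 48.5 and 52.9 CPM. Gata6STOP/+ replicates 1, 3, 4 and 5 had 49.6, 56.7, 59.2 and 53.4 CPM. The groups overlapped, and the log2 fold change was 0.07 (standard error 0.075, 95% interval −0.09 to 0.24, limma adjusted *P*-value=0.842). It was 0.02 without control replicate 4, 0.03 without Gata6STOP/+ replicate 4 and 0.12 without Gata6STOP/+ replicate 1. *6330403L08Rik*, an antisense gene, overlaps *Pdgfa* on the other strand and was at 12.2 to 15.5 CPM in control pools and at 12.2 to 14.2 CPM in Gata6STOP/+ pools. The library kit keeps the strand of the RNA, but the sources used here do not say whether counting used it.

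*Pdgfc* (ENSMUSG00000028019, chromosome 3, 81036416 to 81214040, plus strand) encodes a chain that needs proteolytic release of its growth factor domain. Its control values were 64.3, 59.2 and 64.0 CPM (replicates 3, 4 and 5). Its Gata6STOP/+ values were 83.1, 54.3, 69.0 and 65.2 CPM (replicates 1, 3, 4 and 5). Replicate 1 was the highest of all pools and replicate 3 the lowest, as for *Pdgfrb*. The log2 fold change was 0.10 (standard error 0.116, 95% interval −0.15 to 0.36, limma adjusted *P*-value=0.858), and it was 0.0012 without Gata6STOP/+ replicate 1 and 0.20 without Gata6STOP/+ replicate 3.

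The ligands of the beta receptor had few reads, between 150 and 431 per pool. *Pdgfb* (ENSMUSG00000000489, chromosome 15, 79995874 to 80014977, minus strand), which endothelial cells are known to release, had control values of 10.7, 11.8 and 10.2 CPM (replicates 3, 4 and 5). Its Gata6STOP/+ values were 11.8, 10.1, 14.9 and 12.5 CPM (replicates 1, 3, 4 and 5). The groups overlapped, with Gata6STOP/+ replicate 3 the lowest and replicate 4 the highest of the 7 pools (log2 fold change 0.16, standard error 0.127, 95% interval −0.12 to 0.44, limma adjusted *P*-value=0.792). Without Gata6STOP/+ replicate 4 its log2 fold change was 0.07, and without replicate 3 it was 0.25.

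*Pdgfd* (ENSMUSG00000032006, chromosome 9, 6168584 to 6378850, plus strand) encodes the other chain that is secreted in a latent form. Control replicates 3, 4 and 5 had 7.53, 9.11 and 9.30 CPM. Gata6STOP/+ replicates 1, 3, 4 and 5 had 9.54, 7.10, 6.10 and 6.89 CPM. Gata6STOP/+ replicates 3, 4 and 5 were below every control pool, and replicate 1 was above every control pool. The log2 fold change was −0.22 (standard error 0.150, 95% interval −0.55 to 0.11, limma adjusted *P*-value=0.758). It was −0.34 without Gata6STOP/+ replicate 1 and −0.14 without Gata6STOP/+ replicate 4. For a gene with 150 reads in a pool, the 95% counting interval alone runs from 15.4% below to 17.3% above its value.

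Ligand RNA as a whole overlapped between groups. The summed level of the 4 ligand genes came to 137, 129 and 136 CPM in the controls (replicates 3, 4 and 5). It came to 154, 128, 149 and 138 CPM in Gata6STOP/+ pools (replicates 1, 3, 4 and 5). Gata6STOP/+ pools were the highest, with replicates 1 and 4, and also the lowest, with replicate 3. The mean log2 sum was 0.08 higher in Gata6STOP/+ pools (exact two-sided permutation test, *P*=0.286, or 0.286 adjusted over the 2 tests). This permutation test, too, could not give a *P*-value below 0.0571. No member had every Gata6STOP/+ pool above every control pool (0 of 6), as 4.31% of all genes had.

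Levels can be compared between genes only per length, so CPM were divided by the annotated exon length. In control pools, *Pdgfrb* was at 28.8±0.577 CPM per kb (s.d., *n*=3) and *Pdgfra* at 27.2±4.23 CPM per kb. *Pdgfa* followed at 16.7±0.997 and *Pdgfc* at 12.3±0.555 CPM per kb. *Pdgfd*, at 2.74±0.308 CPM per kb, and *Pdgfb*, at 2.62±0.201 CPM per kb, were the lowest. The ranges of the 3 control pools overlapped between the receptors and between *Pdgfd* and *Pdgfb*, and did not overlap between the other neighbours in this order. *Pdgfa* and *Pdgfc* together made up 84.3±1.63% of ligand CPM per kb in control pools and 85.3±0.589% (s.d., *n*=4) in Gata6STOP/+ pools.

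In Gata6STOP/+ pools the order was *Pdgfrb* (28.4±7.03 CPM per kb, s.d., *n*=4), *Pdgfra* (19.2±3.48), *Pdgfa* (17.5±1.33), *Pdgfc* (13.3±2.34), *Pdgfb* (2.97±0.481) and *Pdgfd* (2.35±0.471). The pools of every neighbouring pair overlapped in range, except *Pdgfc* and *Pdgfb*. *Pdgfra* gave 51.3%, 44.3% and 49.5% of the receptor CPM per kb in control replicates 3, 4 and 5. It gave 37.7%, 44.7%, 36.2% and 44.2% in Gata6STOP/+ replicates 1, 3, 4 and 5. These shares depend on the length used. With all exons merged, *Pdgfra* has 10024 nucleotides, but its longest annotated transcript has 6834. With the latter, *Pdgfra* was at 39.8 and *Pdgfrb* at 29.1 CPM per kb in control pools, so the control ratio moved from 0.943 to 1.37.

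**Figure D3:**
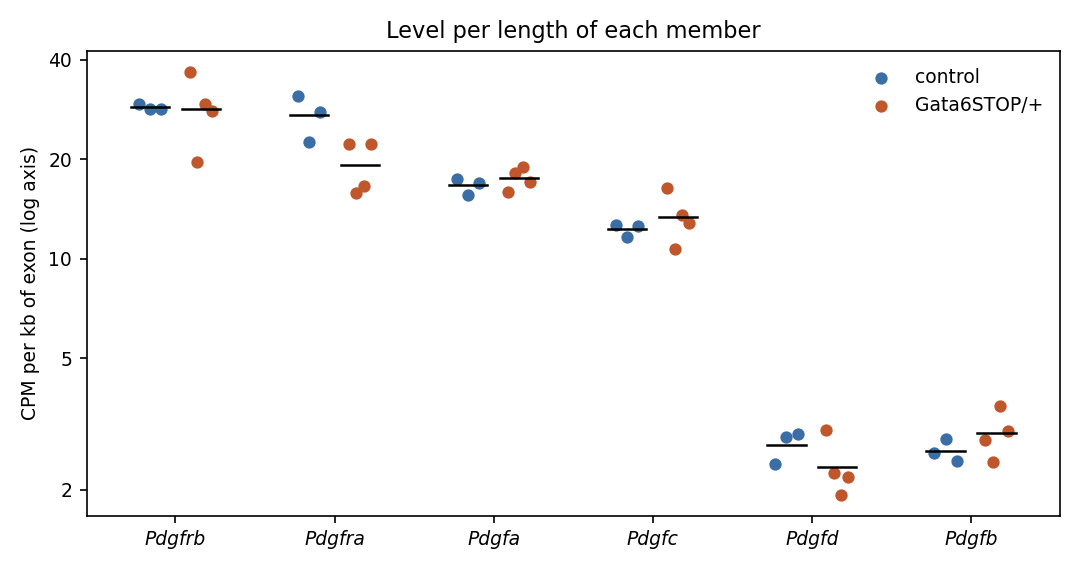
Level of each PDGF member in CPM per kb of merged exons (y axis, logarithmic), with 1 point per pool for 3 control and 4 Gata6STOP/+ pools and the group mean as a line. The receptors, *Pdgfa* and *Pdgfc* lie at 10.7 CPM per kb or more in every pool, and *Pdgfd* and *Pdgfb* at 3.59 or less.

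The other genes of the pathway and family were read against all genes. Over 92 listed genes, 4 were lower and 2 higher in every Gata6STOP/+ pool than in any control pool, where 4.16% and 4.31% of all genes were. The proteins that process or bind PDGFs are the convertases that mature the A and B chains, the proteases that activate the C and D chains, and co-receptors or matrix proteins. Of these 12 genes, 7 had a log2 fold change above 0 and 5 below, with a median of 0.05, where the median of all genes was −0.00073. The convertase *Pcsk6* had a mean of 54.5±2.54 CPM (s.d., *n*=3) in control and 46.3±2.96 CPM (s.d., *n*=4) in Gata6STOP/+ pools, and every Gata6STOP/+ pool was below every control pool (log2 fold change −0.24, limma adjusted *P*-value=0.393). *Pcsk7*, another convertase, was also lower in every Gata6STOP/+ pool (2 of 12 genes of this list, against 4.16% of all genes; log2 fold change −0.14, limma adjusted *P*-value=0.629). *St14*, which encodes matriptase, a protease able to process the D chain, had few reads and was above the controls in every Gata6STOP/+ pool (1 of 12, against 4.31% of all genes; log2 fold change 0.35, limma adjusted *P*-value=0.673). *Plat* and *Plau*, whose proteases activate the C and D chains respectively, had log2 fold changes of −0.01 and −0.06, and their groups overlapped.

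The 38 genes that relay the receptor signal (adaptors, Ras and MAP kinases, phosphoinositide 3-kinase, AKT and STAT genes) had log2 fold changes between −0.16 and 0.12 with a median of 0.01. Of them, 37 overlapped between groups, as did 13484 of all 14732 genes. *Mapk3* was lower in every Gata6STOP/+ pool than in any control pool (−0.08, limma adjusted *P*-value=0.773). The smallest *P*-values of the 38 were those of *Pik3r2* (−0.16, a regulatory subunit of phosphoinositide 3-kinase), *Ptpn11* (0.12, the phosphatase SHP2) and *Braf* (0.12), with limma adjusted *P*-values from 0.694 to 0.743. The 14 genes that attenuate the signal had a median of 0.01 and overlapped throughout, including *Cbl* (0.11), *Spry4* (−0.17) and *Dusp6* (−0.11). Of 16 genes known to be induced at once by PDGF, 14 were listed, and their median log2 fold change was −0.06, with 4 above 0 and 10 below. *Klf4* (0.26), *Ier3* (0.15) and *Ier2* (−0.12) had the smallest *P*-values, and the groups of all 14 overlapped (smallest limma adjusted *P*-value=0.624).

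Among 14 listed relatives, the VEGF ligands and receptors and the KIT and CSF1 receptor systems, the lymphatic and endothelial receptor gene *Flt4* was lower in every Gata6STOP/+ pool than in any control pool, with means of 20.3±1.56 CPM (s.d., *n*=4) against 26.5±2.84 CPM (s.d., *n*=3) (log2 fold change −0.37, limma adjusted *P*-value=0.289). *Csf1*, the ligand of the macrophage receptor CSF1R, was above the controls in every Gata6STOP/+ pool (0.24, limma adjusted *P*-value=0.517). *Flt1* had a log2 fold change of 0.29 (limma adjusted *P*-value=0.436), with overlapping groups. Over all 92 listed genes of these pathway and family lists, 0 had an adjusted *P*-value under 0.05 with limma, edgeR's quasi-likelihood or likelihood ratio test, or DESeq2. At an unadjusted *P*-value under 0.05, limma gave 5 of the 92, edgeR 5 (quasi-likelihood) or 6 (likelihood ratio) and DESeq2 6. The shares of all genes were 8.06%, 7.99%, 7.59% and 7.32%, so the counts over the 92 are not a result about the pathway. They were uneven between lists. With limma, 4 of the 14 relatives (2 higher and 2 lower) and 1 of the 12 processing and binding genes were called. No test was run on this spread.

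Marker lists for the cells of the region were set beside *Pdgfra*. The mesenchyme list of 12 genes summed to 8344 to 8973 CPM in control pools and to 7064 to 10076 CPM in Gata6STOP/+ pools. Its median log2 fold change was −0.06, with 4 genes above 0 and 8 below, and 12 of 12 overlapped between groups, as did 13484 of all 14732 genes. Gata6STOP/+ replicate 1 had the highest and replicate 3 the lowest sum of the 7 pools, as for *Pdgfrb* and *Pdgfc*. *Postn* (−0.47, limma adjusted *P*-value=0.433) had the smallest *P*-value of the list, and *Prrx1* and *Prrx2*, which mark limb and craniofacial mesenchyme, had −0.12 and −0.08. The collagen gene *Col1a2* had the next smallest *P*-value, in the other direction (0.24, limma adjusted *P*-value=0.673). Relative to the mesenchyme sum, *Pdgfra* was at 3.46%, 2.71% and 3.35% in the controls (replicates 3, 4 and 5) and at 2.21%, 2.25%, 1.98% and 2.54% in Gata6STOP/+ replicates 1, 3, 4 and 5. On this scale, which was chosen after the values were seen, the groups stayed apart, with a mean log2 difference of −0.50 (exact two-sided permutation test, *P*=0.0571, the smallest that this design allows). Matrix genes made up most of the sum, since *Fn1*, *Col3a1*, *Col1a1* and *Col1a2* had control means of 2990, 2100, 1218 and 1053 CPM. The ratio thus mainly sets *Pdgfra* against fibronectin and collagen RNA, and whether it follows the amount of mesenchyme was not tested.

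The neural crest and glia list was the only marker list of the 10 whose summed level did not overlap between groups. Its 10 listed genes summed to 176 to 220 CPM in control and to 144 to 163 CPM in Gata6STOP/+ pools, with 7 log2 fold changes below 0 and a median of −0.12. *Erbb3* and *Ednrb* made up 60.6% to 68.9% of the sum in control pools. Without *Ednrb* alone, the sums already overlapped, at 138.7 to 180.5 CPM in control and 127.1 to 144.2 CPM in Gata6STOP/+ pools. Without both genes they overlapped at 68.3 to 76.3 CPM in control and 66.0 to 74.0 CPM in Gata6STOP/+ pools. *Ednrb*, an endothelin receptor of neural crest derivatives and other cells, was at 22.5 to 81.0 CPM in control and 14.1 to 18.6 CPM in Gata6STOP/+ pools (log2 fold change −1.14, limma adjusted *P*-value=0.393). The defining gene *Sox10* had few reads and overlapped between groups, with a log2 fold change of −0.24 (limma adjusted *P*-value=0.826), and *Foxd3* was not listed. Relative to the full sum, the log2 difference of *Pdgfra* was −0.11 and its groups overlapped (exact two-sided permutation test, *P*=0.686). The part of the neural crest markers in the *Pdgfra* difference was not tested.

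**Figure D4:**
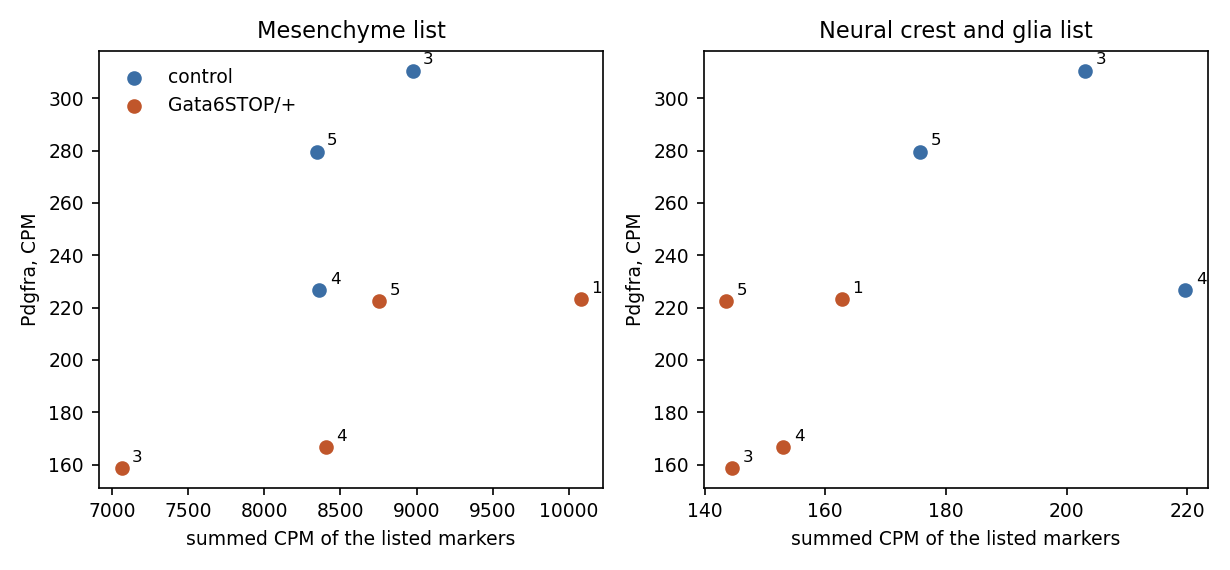
*Pdgfra* in CPM (y axes, not from 0) against the summed CPM of the mesenchyme list (left x axis) and of the neural crest and glia list (right x axis), with 1 point per pool labelled by its replicate number. The Gata6STOP/+ pools span the control range of the mesenchyme sum and all lie below the control pools for the neural crest and glia sum, of which *Erbb3* and *Ednrb* are the larger share.

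The other marker lists overlapped between groups in summed level. The mural cell and smooth muscle list, whose cells carry *Pdgfrb*, summed to 4026 to 4540 CPM in control and to 4257 to 5175 CPM in Gata6STOP/+ pools, with 9 log2 fold changes above 0, 3 below and a median of 0.13. The pericyte genes *Rgs5* (0.24, limma adjusted *P*-value=0.791) and *Cspg4* (0.19, limma adjusted *P*-value=0.579) had overlapping groups, as had *Abcc9*, also known from pericytes (−0.55, limma adjusted *P*-value=0.683). The endothelium and endocardium list, whose cells are a known source of *Pdgfb*, had a median of 0.08. The medians of the cardiomyocyte, epicardium, second heart field, erythroid, macrophage and pharyngeal epithelium lists were −0.14, 0.03, 0.15, 0.40, −0.12 and 0.11. The cardiomyocyte sum was 17051 CPM in Gata6STOP/+ replicate 1, the pool with the highest mesenchyme sum, and 21976 to 25389 CPM in the other pools. The part of such differences between pools in the values of the PDGF members was not tested. Over the 100 listed marker genes, limma and the edgeR quasi-likelihood test gave 0 adjusted *P*-values under 0.05 (13 and 17 unadjusted, against 8.06% and 7.99% of all genes). The edgeR likelihood ratio test gave 2, *Ednrb* and *Hand1*, and DESeq2 gave 1, *Hand1*, where they gave 0.713% and 0.597% of all genes.

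Genes whose profile over the 7 pools was most like that of *Pdgfra* were sought among 11626 other genes whose mean reached 5 CPM. The measure was the root mean square difference of log2(CPM + 0.5), each gene centred on its own mean. *Pdgfra* itself varied by 0.33 around its mean on this scale. The 8 nearest genes were *Pde1a* (0.08), *Fam131b* (0.11), *Itga4* (0.11), *Cd200* (0.12), *Dact2* (0.12), *Col9a3* (0.14), *Epha1* (0.14) and *Inhba* (0.14). *Itga4*, an integrin subunit that binds fibronectin and VCAM1, had means of 164±22.2 CPM (s.d., *n*=3) in control and 121±10.9 CPM (s.d., *n*=4) in Gata6STOP/+ pools. *Inhba*, which encodes the activin beta A subunit, had means of 127.5±11.6 and 92.2±14.4 CPM. *Itga4*, *Cd200*, *Epha1* and *Inhba* were below every control pool in all Gata6STOP/+ pools, which 4.16% of all genes were. This follows from their choice by likeness to *Pdgfra*, which is itself separated. The limma adjusted *P*-values of the 8 ranged from 0.222 to 0.581.

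For the beta receptor, the nearest profiles were those of *Gm49083* (0.04), a long noncoding RNA gene, *Mmp2* (0.05), a gelatinase of mesenchymal cells, and *Iglon5* (0.05), where *Pdgfrb* itself varied by 0.25. *Pdgfc* was nearest to *Col27a1* (0.04), *Olfml3* (0.05) and *Dpep1* (0.05), of which *Olfml3* encodes a secreted protein. *Pdgfa* was nearest to *Prkab2*, *Mbd4* and *Zfp428* (0.02 to 0.03), *Pdgfb* to *Adora2a*, *Gm49383* and *Sorl1* (0.07 to 0.08), and *Pdgfd* to *Sgpp1*, *Itgb8* and *Dnajc24* (0.10 each). These values describe likeness over the same 7 libraries, whose depth and tissue composition all genes share, and carry no test.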

How the data were processed

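RNA from 7 OFT pools was sequenced from 1 end over 60 bases. Cutadapt, RSEM (against GRCm38 and Ensembl annotation) and edgeR were used by the authors, who deposited TMM-normalized CPM, 1 column per pool, for genes that reached 1 CPM in 3 or more pools. Reads were recovered by dividing each column by the worth of 1 read. In 3 pools the smallest value stood for 2, 4 or 6 reads. All values (100%) came out whole within 0.01 read, and the intervals from them cover counting error only.

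Groups were compared with limma 3.58.1 (R 4.3.3) on log2(CPM + 0.5) with a mean-variance trend over all 7 pools. This scale understates changes of genes with few reads. Combined values were compared by exact permutation (scipy 1.17.1). The alternatives were constants of 0.1 and 2 CPM, a mean of at least 5 CPM, median-of-ratios scaling, a replicate block, edgeR 4.0.16 and DESeq2 1.42.0 on recovered reads, omission of each pool and, added after the values were seen, division by marker sums. The fits without a block were tested on simulated reads. Lengths and positions come from GENCODE M21 (GRCm38) and promoters from RefSeq. The members, the gene lists and the naming rule (members, the 3 smallest *P*-values of each pathway list, the leading markers and the nearest profiles) were chosen with earlier results of these data known. *6330403L08Rik* and single list genes were named after their values were seen. A table of protein sequences was not used here.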

Additional observations from a re-analysis of the deposited data

Results flagged for a closer look

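Among 72 named genes, the 4 Gata6STOP/+ pools were examined for 1 pool far from the others, which chance gives in about 1 in 20 groups, and 2 genes were marked. *Ier2* was at 51.5 CPM in Gata6STOP/+ replicate 4 and between 46.1 and 46.9 CPM in the other 3 pools. *Inhba* was at 70.9 CPM in Gata6STOP/+ replicate 3 and between 97.6 and 102 CPM in the other 3. None of the 6 PDGF members was marked.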

How the results depend on the processing

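*Pdgfra* was called by DESeq2 (log2 fold change −0.50, adjusted *P*-value=0.0408). The edgeR likelihood ratio test gave an adjusted *P*-value of 0.0762 without the replicate block and 0.00302 with it (−0.58). Its sign was negative in every alternative run. With the replicate block, limma gave *Pdgfra* −0.58 (adjusted *P*-value=0.194) and 14 genes in all; Gata6STOP/+ replicate 1, which has no control of its number, adds nothing to the blocked values. Same-numbered pools did not deviate together (correlations of −0.046, −0.266 and −0.017). With so few pools, such correlations cannot show whether same-numbered pools share a litter or a batch. The block changed no other call of a member. Genes with an adjusted *P*-value under 0.05 numbered 0 with limma (1187 unadjusted), 1 with a constant of 0.1 CPM, 88 with DESeq2, and 105 and 118 with edgeR's likelihood ratio test without and with the block. Leaving out 1 pool gave 0 to 13, the most without control replicate 4. The log2 fold change of *Pdgfrb* ranged from −0.19 to 0.11 when 1 pool was left out, and the ratio of *Pdgfra* to *Pdgfrb* per length was 1.37 with the longest transcript. Relative to the neural crest and glia sum, *Pdgfrb* and *Pdgfd* turned to 0.34 and 0.16. That sum was lower in every Gata6STOP/+ pool than in any control pool, so dividing by it raised the value of every member. Why the sum was lower was not tested. The median of all genes moved by 0.00041 under median-of-ratios scaling.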

Other observations

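Relative to the mesenchyme marker sum, a scale chosen after the values were seen, the coefficient of variation over the 4 Gata6STOP/+ pools was 11.7% for *Pdgfrb*, 5.01% for *Pdgfc*, 10.2% for *Pdgfra* and 15.2% for *Pdgfd*, against 24.7%, 17.5%, 18.1% and 20.1% in CPM. It was 20.3% for *Pdgfa* and 17.1% for *Pdgfb*, against 7.60% and 16.2% in CPM. Receptor over ligand CPM per kb was 1.72, 1.55 and 1.61 in control replicates 3, 4 and 5 and 1.55, 1.06, 1.21 and 1.43 in Gata6STOP/+ replicates 1, 3, 4 and 5. Every Gata6STOP/+ pool was below every control pool, but Gata6STOP/+ replicate 1 and control replicate 4 are the same when rounded, and no test was run.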
